A study of Mus musculus with 18 samples.

Results

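Murine leukaemia virus-like endogenous retroviruses are represented in the deposited tables by 3 rows of the ERV1 class: RLTR4_MM-int, RLTR4_Mm and MuLV-int. They were chosen by name, as every row whose repeat name begins with RLTR4_ or MuLV, and are 3 of 1365 repeat rows and 3 of 119 rows of the class ERV1. All 3 were tested in each table, so no member was lost to a filter on low values. A row sums the reads of all genomic copies of a repeat, and none of the values below belongs to a single locus.

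Murine leukaemia virus (MLV) is a gammaretrovirus of mice, and its germline copies are carried as endogenous proviruses. A provirus has an internal part that holds gag, pol and env, flanked by long terminal repeats (LTRs) that carry the promoter, enhancers and polyadenylation signal. In the naming of mouse repeats, RLTR4_Mm is such an LTR, and the ending -int marks an internal part, so that RLTR4_MM-int and MuLV-int are both internal. The number and position of MLV proviruses differ between inbred strains. In embryonic stem cells MLV is a classical target of silencing by TRIM28, which the zinc-finger protein ZFP809 recruits to the primer binding site of the provirus.

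The libraries compared were 3 of macrophages treated with NVP-AUY922 and 3 of untreated macrophages, 3 of treated and 3 of untreated neuronal progenitor cells (NPCs), and 3 of treated and 3 of untreated embryonic stem cells (ESCs). NVP-AUY922 inhibits HSP90, a chaperone that helps many signalling and regulatory proteins to fold. It was given for 24 h at 500 nM to macrophages, 50 nM to NPCs and 100 nM to ESCs. Macrophages were grown from bone marrow with M-CSF and labelled BALBC/C57BL6. NPCs were kept in N2B27 with EGF and FGF and ESCs in 2i medium, and both were labelled 129S1/CASTEiJ. Cell type, dose and, for macrophages, strain therefore change together and cannot be told apart. The labels do not state whether replicates came from separate cultures or animals. If they did not, the p-values describe technical spread between libraries only. The tables hold repeats only, so the labelled cell types were not checked against marker genes.

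The tables give 1 base mean, 1 log2 fold change and its standard error (SE) per row, and no value per library. The base mean is the mean of normalised reads over the treated and untreated libraries of a cell type, and the depth of each library is not known from it. The tables do not say whether treated or untreated cells are the numerator of the contrast. A row is therefore said to lie on the positive or the negative side, and treated cells are given neither side. In such bulk RNA, fewer cells of a type and less RNA per cell cannot be told apart.

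In macrophages all 3 MLV-like rows lay far on the negative side of the contrast, between 3.99-fold and 4.79-fold, and passed the test. Of all tested rows there, 12.5% passed on that side. In NPCs none passed, against 11.8% of all tested rows. In ESCs only MuLV-int passed, on the positive side and at 1.20-fold, against 22.2% of all tested rows on either side. With 3 rows, counts of 0 and 1 are near these NPC and ESC shares. The effect in macrophages differed from that in NPCs and from that in ESCs for each of the 3 rows.

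RLTR4_MM-int, the internal part named for the RLTR4 LTR, had a base mean of 27268 normalised reads in macrophages in the authors' deposited table. Its log2 fold change was -2.26 ± 0.13 (SE) and its DESeq2 adjusted p 5.70e-68, both from the authors' deposited table. That is a 4.78-fold difference between treated and untreated macrophages, with a 95% interval of 4.02-fold to 5.68-fold computed from the SE in the authors' deposited table. For groups of equal size, this fold and base mean correspond to means of about 45099 normalised reads in the higher group and 9437 in the lower, and the authors' deposited table does not say which of them was treated.

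RLTR4_Mm, the LTR, had a base mean of 9875 in macrophages and a log2 fold change of -2.26 ± 0.15 (adjusted p 3.87e-51), again from the authors' deposited table. Its fold difference of 4.79 has a 95% interval of 3.92-fold to 5.84-fold, computed from the authors' deposited table. The LTR and the internal part thus differed by only 0.0022 on the log2 scale in macrophages, far less than either SE. The corresponding means are about 16337 normalised reads in the higher group and 3413 in the lower, from the values of the authors' deposited table.

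MuLV-int, the other internal part, had a base mean of 12002 in macrophages and lay at -1.997 ± 0.109 (adjusted p 2.08e-72, the authors' deposited table). This is a 3.99-fold difference with a 95% interval of 3.44-fold to 4.63-fold, computed from the authors' deposited table. The corresponding group means are about 19194 and 4809 normalised reads, from the values of the authors' deposited table. MuLV-int lay 0.26 nearer 0 than RLTR4_MM-int and RLTR4_Mm. Whether the rows differ from each other was not tested, since the LTR and the internal parts it flanks can share reads and library errors.

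Against the background of the macrophage table, 3 of 3 members were called on the negative side, where 12.5% of all 1255 tested rows were called on that side and 25.8% on either. The median log2 fold change of the members was -2.26 and that of all tested rows -0.013, computed from the authors' deposited table. The most negative rows of the macrophage table lay much further out, RLTR30D_RN at -5.76 ± 0.27 and RNERVK23-int at -5.59 ± 0.29 in the authors' deposited table. By size, RLTR4_Mm, RLTR4_MM-int and MuLV-int were the 3rd, 4th and 6th most negative of 1255 rows. RLTR11A, an ERVK row at -2.22 ± 0.14 in the authors' deposited table, stood between them at the 5th place. Among 114 tested ERV1 rows the members took the 2nd, 3rd and 4th places from the negative end, after RLTR30D_RN. By base mean, which is not scaled by length, the members stood high in the macrophage table, at the 16th (RLTR4_MM-int), 35th (MuLV-int) and 43rd (RLTR4_Mm) place of 1365.

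**Figure D1:**
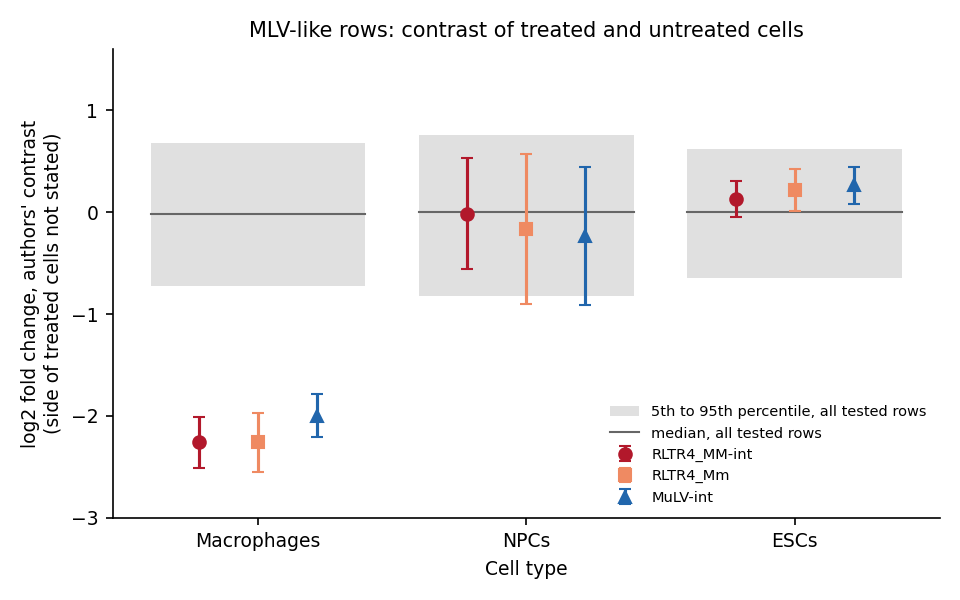
Log2 fold change of the 3 MLV-like rows (y axis, authors' contrast, side of treated cells not stated) in macrophages, NPCs and ESCs (x axis). Points are the authors' estimates, bars the 95% interval from the SE, and grey boxes the 5th to 95th percentile of all tested rows; the members lie near -2 in macrophages, below the box, and their points are inside it in NPCs and ESCs.

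In NPCs the members did not pass the test. In the authors' deposited table RLTR4_MM-int lay at -0.013 ± 0.28 (adjusted p 0.988) with a base mean of 5228. There, RLTR4_Mm lay at -0.16 ± 0.37 (adjusted p 0.898, the authors' deposited table) with a base mean of 7977. MuLV-int, at a base mean of 8435, lay at -0.23 ± 0.35 (adjusted p 0.796, the authors' deposited table). With DESeq2, 0 of 3 members were called and 0 of 3 had an unadjusted p under 0.05, where 11.8% of 1249 tested rows were called. No other tool was run on this contrast.

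The NPC values do not show that the treatment left these rows as they were. The 95% interval of MuLV-int ran from -0.91 to 0.45 on the log2 scale, that of RLTR4_Mm from -0.90 to 0.57 and that of RLTR4_MM-int from -0.56 to 0.53, computed from the authors' deposited table. Differences of up to 1.88-fold on the negative side for MuLV-int, or up to 1.49-fold on the positive side for RLTR4_Mm, were thus within reach of the error. None of the 3 intervals reached the size seen in macrophages. The deposited fold changes were probably shrunken towards 0, and the intervals are of these values.

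In ESCs the members lay slightly on the positive side. For MuLV-int, at a base mean of 1646, the authors' deposited table gives 0.27 ± 0.09 (adjusted p 0.0230), or 1.20-fold. RLTR4_Mm, at a base mean of 2238, did not pass, at 0.22 ± 0.11 (adjusted p 0.127, unadjusted p 0.0369, the authors' deposited table). Nor did RLTR4_MM-int, at a base mean of 4952 and 0.13 ± 0.09 (adjusted p 0.349, the authors' deposited table). Thus 1 of 3 members was called positive, where 10.2% of 1132 tested ESC rows were, and 22.2% on either side. The call of MuLV-int did not hold at an adjusted p of 0.01, nor with a t distribution of 4 degrees of freedom, under which its adjusted p was 0.253. The 3 rows lay within 0.13 of each other on the log2 scale, close to the SE of a single row.

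**Figure D2:**
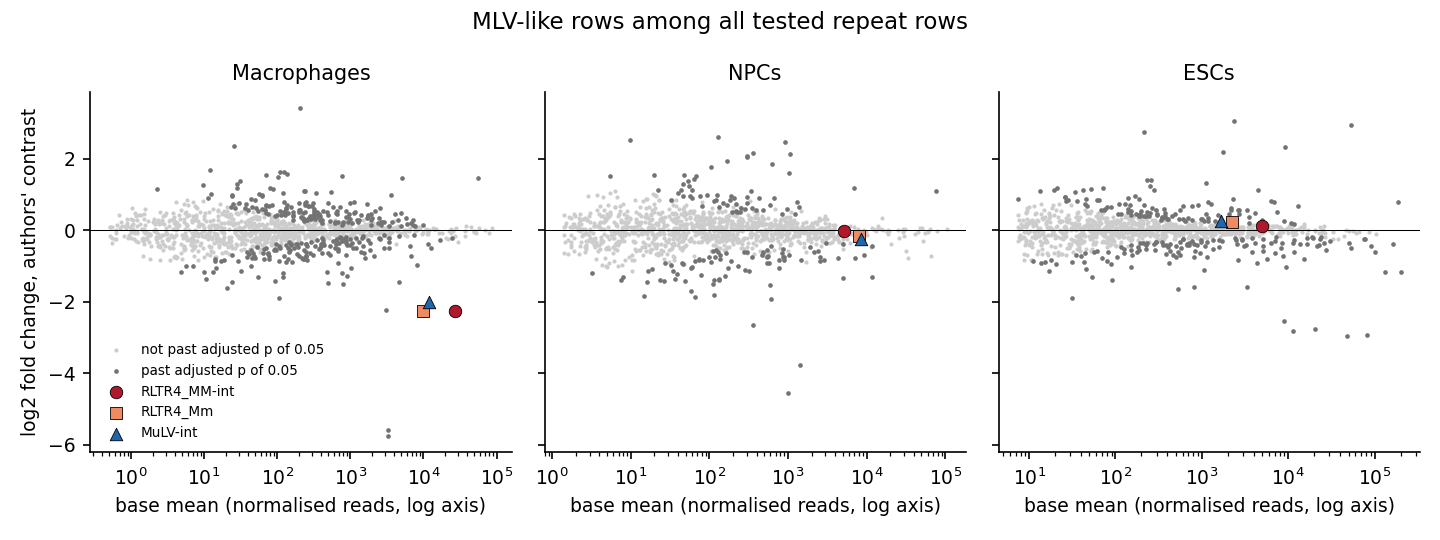
Log2 fold change (y axis, authors' contrast) against base mean in normalised reads (x axis, log scale) for every tested row in macrophages, NPCs and ESCs. Dark grey rows passed an adjusted p of 0.05 and light grey rows did not; in macrophages the members stand apart at high base means and about -2, and in the other cell types they lie near 0.

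The differences between cell types were tested directly, as the difference of 2 log2 fold changes divided by its SE, with adjustment over all rows tested in both tables. For RLTR4_MM-int, macrophages minus NPCs came to -2.24 ± 0.31 (adjusted p 3.65e-11), a 4.74-fold ratio of the 2 folds. RLTR4_Mm differed by -2.10 ± 0.40 (adjusted p 8.45e-06) and MuLV-int by -1.77 ± 0.36 (adjusted p 4.18e-05). All 3 were thus called on the negative side, where 6.14% of 1222 rows were called. Their places from the negative end were the 4th, 7th and 12th. Shrinkage of fold changes towards 0, which is probable here, can differ between the 2 tables.

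Macrophages minus ESCs came to -2.39 ± 0.16 for RLTR4_MM-int (adjusted p 9.62e-51). RLTR4_Mm differed by -2.48 ± 0.18 (adjusted p 1.20e-40) and MuLV-int by -2.26 ± 0.14 (adjusted p 6.99e-54). Again 3 of 3 were called on the negative side, against 11.8% of 1124 rows, and they took the 7th, 4th and 8th places. With the sign of the NPC or ESC table turned, these 6 differences lay between -2.42 and -1.73 and all passed, where 11.1% (NPCs turned) and 14.5% (ESCs turned) of rows were called negative. The calls thus do not rest on the tables being oriented alike.

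NPCs minus ESCs gave no call among the members, where 12.6% of 1126 rows were called on either side. The difference was -0.15 for RLTR4_MM-int (95% interval -0.72 to 0.43), -0.38 for RLTR4_Mm (-1.15 to 0.38) and -0.50 for MuLV-int (-1.20 to 0.20). The adjusted p were 0.854, 0.650 and 0.457 in that order. NPCs and ESCs share the strain label, whereas both pairs with macrophages differ in it as well.

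The SE of the members lay above the median of rows with such base means in each cell type, least so in ESCs. Wide SE were not particular to the members. In macrophages MMERGLN-int, an ERV1 row with a base mean of 8295, had a wider SE (0.19) than any member. MMVL30-int, an ERV1 row at 27230, had a narrower one (0.12) than RLTR4_MM-int. Of the 247 tested NPC rows whose base mean was 1000 or more, RLTR4_Mm had the 6th largest SE, MuLV-int the 12th and RLTR4_MM-int the 39th. Their SE were 2.16, 1.99 and 1.61 times the median of those rows, which was 0.17 in the authors' deposited table. In macrophages the factors were 2.10 for RLTR4_Mm, 1.82 for RLTR4_MM-int and 1.56 for MuLV-int, against a median of 0.070 over 237 rows of the authors' deposited table. In ESCs they were 1.37, 1.17 and 1.21, against a median of 0.077 over 319 rows of the authors' deposited table. At such base means the SE of a DESeq2 fit mostly reflects the estimated spread between libraries. In each table the LTR row had the widest SE of the 3.

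The share of repeat reads that fell on MLV-like rows was lowest in ESCs, and how far macrophages lay from NPCs depended on which macrophage group was taken. Each table was normalised by itself, so a level is given as a share of the summed base mean of its own 1365 rows, with no error since no value per library was given. The 3 rows together made up 2.47% of this sum in macrophages, 1.04% in NPCs and 0.230% in ESCs with treated and untreated libraries pooled, computed from the authors' deposited tables. The macrophage figure joins 2 groups of unlike level. By the means that fold and base mean imply, the share was 3.996% in the higher macrophage group and 0.902% in the lower. The lower share lay close to both NPC groups, at 1.070% and 1.005%. This gap cannot be ordered, as the shares have no error and the NPC log2 fold changes had SE of 0.28 to 0.37. Both ESC groups were lower, at 0.265% and 0.200%. Of the ERV1 class alone the members made up 41.3% in macrophages, 30.4% in NPCs and 2.93% in ESCs when pooled, with 50.5% in the higher macrophage group and 22.5% in the lower. In ESCs, RLTR1B-int, an internal part in the list named for GLN retroviruses, had a base mean of 164223 in the authors' deposited table. Within ERV1, RLTR4_MM-int had the highest pooled base mean in macrophages, not scaled by length, but this first place held in the higher group only. In the lower group its implied mean of 9437 stood 2nd, after MMVL30-int of the VL30 elements at 25682. MuLV-int stood first in NPCs, in both groups. In ESCs RLTR4_MM-int and MuLV-int stood at the 6th and 18th places by pooled base mean.

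**Figure D3:**
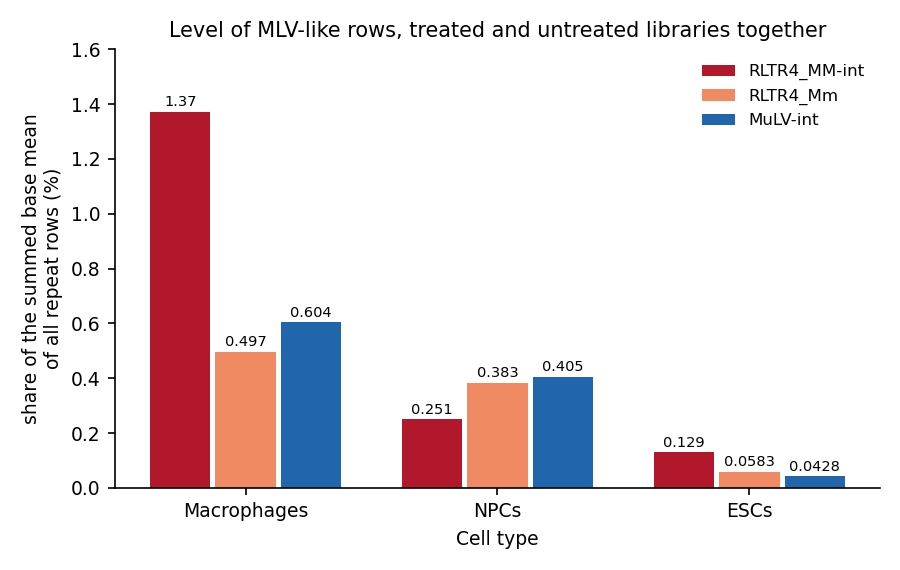
Base mean of each MLV-like row as a percentage of the summed base mean of all repeat rows (y axis) in macrophages, NPCs and ESCs (x axis), treated and untreated libraries together and without error bars since no value per library was given. RLTR4_MM-int made up 1.37% in macrophages, 0.251% in NPCs and 0.129% in ESCs; the macrophage bars join 2 groups that differ 3.99-fold to 4.79-fold.

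The balance among the 3 rows was not the same in the 3 cell types. Rows were not scaled by length, so a ratio of 2 rows does not rank their levels. When the same ratio is set side by side across tables, length cancels only as far as the same copies are read in each. Which copies were read is not known here. RLTR4_MM-int over RLTR4_Mm, the internal part over the LTR, was 2.76 in macrophages, 0.655 in NPCs and 2.21 in ESCs, computed from the authors' deposited tables. RLTR4_MM-int over MuLV-int was 2.27 in macrophages, 0.620 in NPCs and 3.01 in ESCs, computed from the authors' deposited tables. Both ratios were thus lowest in NPCs, by factors of 4.21 and 3.67 against macrophages and of 3.38 and 4.86 against ESCs. MuLV-int over RLTR4_Mm moved less, at 1.22 in macrophages, 1.06 in NPCs and 0.735 in ESCs, computed from the authors' deposited tables. These ratios have no error and were not tested. The part that read assignment between near-identical rows plays in them was not tested either.

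Across the 3 cell types the members were nearest to each other. Likeness was measured as the Euclidean distance between the 3 log2 fold changes of a member and those of 715 other rows that were tested everywhere and had a base mean of at least 50. RLTR4_MM-int and RLTR4_Mm lay 0.17 apart, RLTR4_Mm and MuLV-int 0.27, and RLTR4_MM-int and MuLV-int 0.36. The median distance to all other rows was between 2.07 and 2.31. The 3 nearest rows outside the group were the same for each member, RLTR9A3, RLTR11A and RLTR14-int, at distances between 0.95 and 1.16. Distances of this kind rest on 3 points each and carry no test. The members can share reads and library errors, and the part this plays in their nearness was not tested.

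RLTR14-int, an ERV1 internal part, lay at -1.18 ± 0.09 in macrophages, 0.22 ± 0.27 in NPCs and 0.08 ± 0.09 in ESCs in the authors' deposited tables. RLTR9A3, an ERVK row, lay at -1.47 ± 0.10, 0.28 ± 0.22 and -0.36 ± 0.13 in the same order in the authors' deposited tables. RLTR11A, also ERVK, lay at -2.22 ± 0.14, -0.75 ± 0.17 and -0.61 ± 0.07, and passed in all 3 of the authors' deposited tables. RLTR11A was thus called negative in NPCs and ESCs, where no member was.

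**Figure D4:**
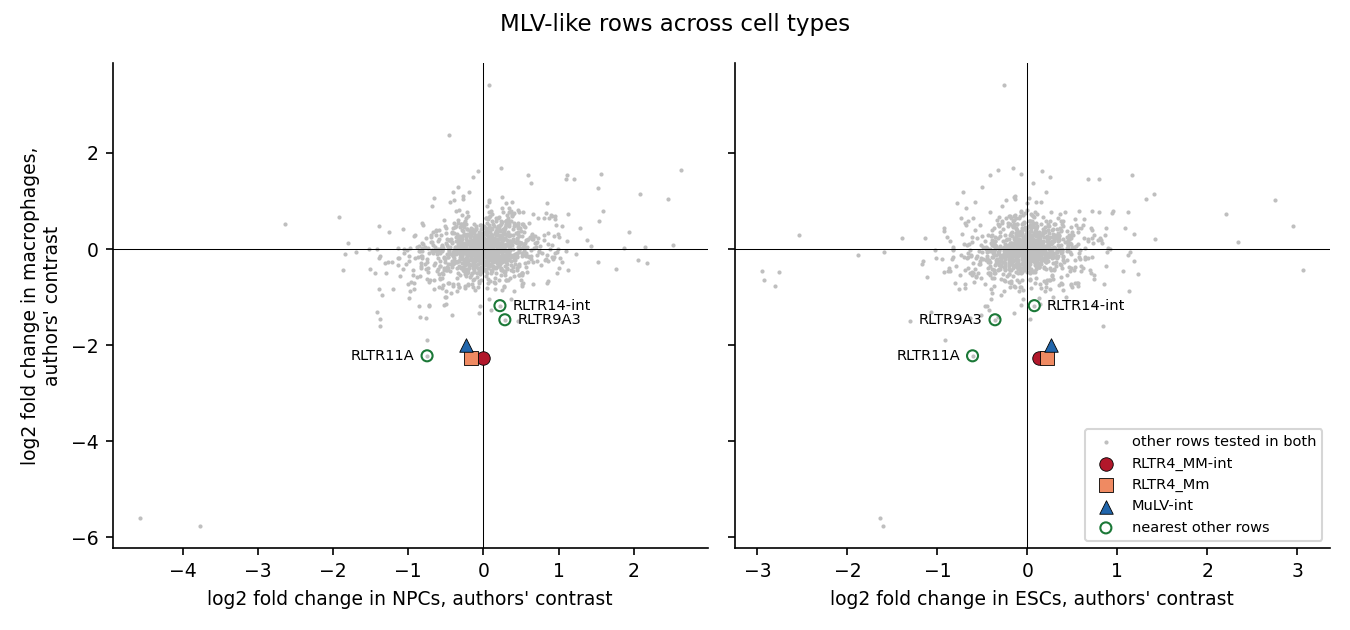
Log2 fold change in macrophages (y axis) against that in NPCs (left, x axis) and in ESCs (right, x axis), authors' contrast, for all rows tested in both tables. The members form a tight group near -2 in macrophages and near 0 in the other cell type, and open circles mark the nearest rows outside the group, RLTR9A3, RLTR11A and RLTR14-int.

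Related retroviral rows of the mouse did not share the size of the macrophage values. Groups defined by name were set beside the members: VL30, GLN, MuRRS and MuRVY, with 5, 11, 11 and 3 rows. VL30 elements lack intact retroviral genes and are packaged by MLV particles, GLN elements are gammaretrovirus-like proviruses, MuRRS are MLV-related sequences and MuRVY are MLV-related copies on the Y chromosome. Of their 29 tested rows in macrophages, 5 were called positive and 10 negative, or 51.7% against 25.8% of all rows. In NPCs 3 were positive and 4 negative of 30, or 23.3% against 11.8%. In ESCs 3 were positive and 9 negative of 30, or 40.0% against 22.2%. With a t distribution of 4 degrees of freedom 2 of these rows were called in macrophages, 0 in NPCs and 0 in ESCs. All 3 members kept their call in macrophages under it. The share of all rows called under that rule is not given here, so these counts have no background beside them. The median log2 fold change of the VL30, GLN, MuRRS and MuRVY rows was -0.16 in macrophages, -0.13 in NPCs and -0.10 in ESCs, computed from the authors' deposited tables.

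In macrophages the lowest of these rows was RLTR6-int, an internal part in the VL30 list, at -1.27 ± 0.08 in the authors' deposited table (adjusted p 2.13e-51), above all 3 members. It lay at 0.11 ± 0.21 in NPCs and -0.43 ± 0.07 in ESCs in the authors' deposited tables. MMVL30-int, a VL30 internal row whose macrophage base mean of 27230 was close to that of RLTR4_MM-int, lay at -0.16 ± 0.12 and did not pass in the authors' deposited table (adjusted p 0.356). It passed in ESCs at 0.28 ± 0.08, where MuLV-int lay at 0.27 ± 0.09, in the authors' deposited table. RLTR6B_Mm, an LTR of the VL30 list, lay at 0.58 ± 0.16 in NPCs in the authors' deposited table (adjusted p 0.00544).

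Among all tested rows, 167 were called positive and 157 negative of 1255 in macrophages. These counts were 62 and 85 of 1249 in NPCs, and 115 and 136 of 1132 in ESCs. Of the 10 GLN rows tested in macrophages, 3 were positive and 4 negative. RLTR1B-int had the smallest adjusted p of them, 2.77e-21, at -0.61 ± 0.06 in the authors' deposited table. In NPCs 0 GLN rows were positive and 4 negative of 11, and in ESCs 0 and 5 of 11. RLTR1D2_MM had the smallest adjusted p in both, at -1.06 ± 0.18 in NPCs and -0.66 ± 0.13 in ESCs in the authors' deposited tables. Of 11 MuRRS rows, 2 were positive and 3 negative in macrophages, 2 and 0 in NPCs, and 2 and 3 in ESCs. LTRIS_Mm, an LTR of this list, lay at -0.73 ± 0.11 in macrophages, and LTRIS_Mus at 0.80 ± 0.14 in macrophages and 0.58 ± 0.09 in ESCs, in the authors' deposited tables. LTRIS4 passed in NPCs with an adjusted p of 0.00227 (positive side), and LTRIS2, the MuRRS row of highest mean base mean, did not pass in any of the authors' deposited tables. Among the MuRVY rows, RLTR5_Mm passed in macrophages at -0.87 ± 0.28 with a base mean of only 29.1 in the authors' deposited table. MURVY-LTR and MURVY-int did not pass in any of the authors' deposited tables.

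**Figure D5:**
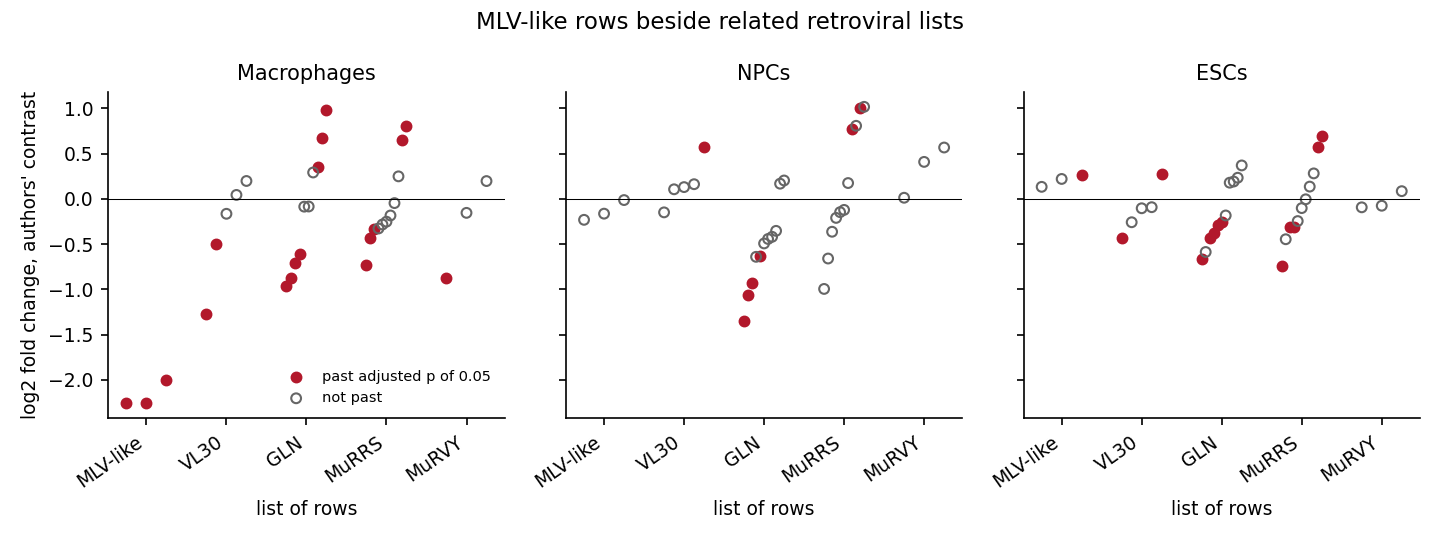
Log2 fold change (y axis, authors' contrast) of each tested row of the MLV-like, VL30, GLN, MuRRS and MuRVY groups (x axis) in macrophages, NPCs and ESCs. Filled points passed an adjusted p of 0.05 and open points did not; in macrophages the MLV-like rows lie below the lowest related row, RLTR6-int at -1.27, and in NPCs and ESCs they lie within the range of the other groups.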

How the data were processed

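Poly(A) RNA was sequenced in 18 libraries in 6 groups of 3. The submitters' processing notes name build mm10 and, without roles, DESeq2, featureCounts, TopHat2 2.0.13, Bowtie2, deepTools and Trim Galore. Per the file headers, the 3 deposited tables are DESeq2 results. Their base mean is a signal, the mean of size-factor-normalised reads, deposited by the authors. Fold changes and their SE are log2 values the authors deposited, and the Wald statistic is a deposited score. P-values and adjusted p-values are also those the authors deposited. Strand use and the assignment of reads that fit several copies are not given in the sources used here. In macrophages the SE grew as base means fell, but did not keep growing at the lowest base means. It was 0.37 for Charlie10a at a base mean of 4.17 and 0.26 for HY3 at 0.524. Fold changes were thus probably shrunken towards 0, by amounts that can differ between rows and tables. Intervals, and differences between cell types, are of such values.

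A row was called at an adjusted p under 0.05. Differences between cell types used two-sided p-values from the normal distribution, adjusted by Benjamini-Hochberg over all rows tested in both tables (Python 3.11.15, scipy 1.17.1). The computation was tested on simulated data with independent normal errors of the deposited SE. That checks the computation only, not whether the SE are right or what shared reads or shrinkage do. Named rows were the members, the 5 nearest profile neighbours of each and, per related list, the row of highest mean base mean and that of smallest adjusted p in each table. Rows at the negative end in macrophages, and rows given for their SE, were named as well. Members and lists were chosen with earlier results of these data known. Alternatives covered the distribution, the rows adjusted over, a base mean minimum of 50, centring, the threshold and the orientation of tables. No sequence is shown, as none of these repeats was in the sequence tables used here.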

Additional observations from a re-analysis of the deposited data

Results flagged for a closer look

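Each MLV-like row showed an effect in macrophages that differed from its effect in another cell type by the test of the difference itself. Macrophages minus NPCs came to -2.24 for RLTR4_MM-int, -2.10 for RLTR4_Mm and -1.77 for MuLV-int on the log2 scale. Macrophages minus ESCs came to -2.39 for RLTR4_MM-int, -2.48 for RLTR4_Mm and -2.26 for MuLV-int. The 3 rows can share reads, so these are not 6 independent results. Dose and strain label change with the cell type and cannot be told apart from it.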

How the results depend on the processing

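Of 36 results for member fold changes under the alternatives, 35 kept their side of 0 and of the threshold. Only centring on the median changed a fold change itself, as from -2.257 to -2.244 for RLTR4_MM-int in macrophages. The other alternatives changed the adjusted p alone, so the side of 0 could not change under them. In macrophages the adjusted p was at most 0.0132 for all 3 members under every alternative run. MuLV-int in ESCs kept its 0.27 and lost its call with a t distribution of 4 degrees of freedom (adjusted p 0.253, against 0.0188 at the lowest). Members called in ESCs were then 0, and also 0 at an adjusted p under 0.01, in place of 1. The VL30, GLN, MuRRS and MuRVY rows called with that t distribution were 2 in macrophages, 0 in NPCs and 0 in ESCs, in place of 15, 7 and 12. The share of all rows called with it is not given here. All differences of macrophages from NPCs or ESCs passed under each alternative, with adjusted p up to 0.0479 (MuLV-int against NPCs, t distribution with 8 degrees of freedom). With the ESC table turned, NPCs minus ESCs changed sign without a call, to 0.12 for RLTR4_MM-int, 0.058 for RLTR4_Mm and 0.035 for MuLV-int, which follows from the turned sign of small values. Of the 5 nearest rows of MuLV-int, 3 were shared at a base mean minimum of 10. Leaving out a replicate was not run, as the tables hold no value per library. No paired analysis was possible because the tables carry no columns of replicates. Depth per library is unknown, and the wide SE in NPCs limit what could be seen there.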

Other observations

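The ERV1 rows outside the MLV-like, VL30, GLN, MuRRS and MuRVY groups were called about as often as all rows. In macrophages 4 were positive and 15 negative of 83 tested, or 22.9% against 25.8% of all rows, with a median log2 fold change of -0.039. Their calls leaned negative there, where 167 positive and 157 negative were called among all 1255 rows. This lean was not tested. Their macrophage values ran from -5.76 for RLTR30D_RN, beyond every member, to 0.69. RLTR30D_RN also lay at -3.77 in NPCs. In NPCs 4 were positive and 6 negative of 82, or 12.2% against 11.8%, with a median of 0.0037. In ESCs 8 were positive and 13 negative of 78, or 26.9% against 22.2%, with a median of -0.055.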
